A study of Homo sapiens with 22 samples.

Results

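The integrated stress response is the program by which cells lower general translation and raise the output of a small set of stress genes. Kinases that sense different stresses phosphorylate the translation factor eIF2, which slows initiation on most mRNAs and lets ribosomes reach the coding sequence of ATF4 past its upstream reading frames. ATF4 then activates genes of amino acid supply, further transcription factors of the same family and feedback regulators that end the response. Colliding ribosomes are a known trigger, through the kinase GCN2, and ZNF598 is the E3 ubiquitin ligase that marks such ribosomes.

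The 10 genes described here were taken by symbol: the transcription factors ATF4, ATF3, DDIT3 and CEBPB, the metabolic enzymes ASNS and CHAC1, the mTORC1 restraints DDIT4 and SESN2, and the feedback genes TRIB3 and PPP1R15A. They were 10 of 63475 gene names given to the rows of the files, and each was followed by its protein-coding transcript with the most counts. The data were BRIC-Seq libraries, in which cells build bromouridine (BrU) into new RNA, are then chased without it, and labelled RNA is pulled down with an antibody and sequenced. The cells were HEK293T, a line from human embryonic kidney, with a control hairpin (shControl) or with one that targets ZNF598 (shZNF598), and both took up 150 µM BrU for 24 h in DMEM. For each hairpin there were 2 libraries at 0, 2, 4, 6 and 10 h of chase and 1 library at 24 h, 22 libraries in all. Whether the hairpin lines were clones or pools is not given in the sources used here, so a property of either line and an effect of its hairpin cannot be told apart. No label says that the 2 libraries of a group came from separate cultures, so p-values measure the spread between these libraries, which may be technical. For straight lines fitted over the chase, p-values also take in how far a profile bends away from the line.

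Total counts were 52352359 to 96963584 per library over 0-10 h, and 21220829 in shControl and 40157613 in shZNF598 at 24 h. Over 0-10 h ZNF598 itself stood at 3.97 to 8.37 CPM (read counts scaled to a common library total) in shControl and at 0.411 to 1.05 CPM in shZNF598, a log2 difference of -3.05 (SE 0.09, adjusted p = 1.17e-18). At 24 h its levels were closer, at 4.98 CPM in shControl and 2.45 CPM in shZNF598, 1 library each. Of 8 markers chosen for HEK293T cells, 6 had a mean of at least 1 CPM, VIM and KRT8 among them, while PAX2 (0.0416 CPM) and LHX1 (0.162 CPM) were near 0. Among markers of other tissues, ALB of liver and MYH1 of muscle had means of 0.0058 and 0.0169 CPM, and INS of pancreas had 0 counts in every library. The 2 libraries of shControl at 0 h differed most from each other, with a Pearson r across transcripts of 0.9743, so values that rest on them are given with each of them left out where that matters.

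Sequences that bear on how these mRNAs are read and kept were taken from GENCODE release 44 and RefSeq, both on GRCh38. The 5′ leader of ATF4 (22:39519695-39522683, + strand, transcript ENST00000404241.6, 1910 nt) holds the reading frames by which ATF4 translation is known to be controlled. The leader of this transcript held 6 upstream ATG codons. The RefSeq starts of ATF4 used below lie downstream of its first base, and the leaders of other ATF4 transcripts were not searched. The short frame at positions 578 to 589 of the transcript has 3 codons before its stop, and a frame of 59 codons at positions 677 to 856 runs past the ATF4 start at position 774 and overlaps the coding sequence by 83 nt. The short frame is shown whole, all in capitals since all of it is the open reading frame.

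ATF4 short upstream frame: ATGGCGTATTAG

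Of the 10 members, 6 had at least 1 upstream ATG, against 45.1% of 10639 coding genes tested. DDIT3 had 4, ASNS, TRIB3 and PPP1R15A had 2 each, and SESN2 had 1. Those of ASNS lie upstream of its RefSeq starts used below. For TRIB3 the search used the release 44 version of the transcript, with 2356 nt, while the counted version had 2094 nt. Whether its upstream ATG codons lie in the counted version was not checked. The 3′ UTRs were searched on the mRNA strand for ATTTA and for the longer TATTTAT, which contains it, because these letters mark AU-rich elements of short-lived mRNAs. TATTTAT was in 4 of 10 members, against 37.4% of coding genes, and ATTTA in 5 of 10, against 75%. The windows below show a 3′ UTR stretch of each of these 5 members, with the first TATTTAT, or else the first ATTTA, in capitals. Further ATTTA copies, inside or outside the windows, are not marked. ATF3 had 3 ATTTA in all, and DDIT3 and PPP1R15A had 2 each.

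ATF3: aaaatattactTATTTATcctagtattcc
DDIT3: gattgtacattTATTTATtactgtcccta
CEBPB: gcccgtggtgttATTTAaagaagaaacgt
CHAC1: acttgaaacttTATTTATtgcaccatgtt
PPP1R15A: aatttattaacTATTTATtttttctaagt

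The ATTTA letters were not found in the 3′ UTRs of ATF4, ASNS, DDIT4, SESN2 or TRIB3. Promoters (250 bases before to 50 after the start, RefSeq GRCh38.p14) were searched on both strands for TGATGNAA, the core of the element that ATF4 and its C/EBP partners are known to bind. A gene can have several promoter entries. By gene, the motif was in at least 1 entry of 3 of 10 members, against 4.46% of 27305 genes. By entry, it was in 3 of 17 for the members, against 3.62% of 35116. In the lines below the match is in capitals, read on the strand of the gene; in CHAC1 it lies on the other strand.

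ATF3 (chr1:212565205-212565234, + strand): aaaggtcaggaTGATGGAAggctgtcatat
ASNS (chr7:97872458-97872487, - strand): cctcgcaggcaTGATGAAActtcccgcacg
CHAC1 (chr15:40953251-40953280, + strand): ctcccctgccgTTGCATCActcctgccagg

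The matches start 191, 68 and 209 bases before the RefSeq start of ATF3, ASNS and CHAC1. The ASNS match lies inside the transcript that was counted (7:97852118-97872542), which begins upstream of that RefSeq start. The upstream ATG codons of ASNS, at positions 66 and 69 of that transcript, overlap the match. Which ASNS start these cells used was not tested. The ATF3 promoter entry lies upstream of the transcript that was counted (1:212608761-212620775). These are matches of letters only, and no binding was measured.

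Across the members, labelled mRNA spanned a wide range. Per kilobase of transcript at 0 h, ATF4 had 30.6 CPM per kb in shControl, above the next member, SESN2, at 6.01. ASNS (5.0) and DDIT4 (4.6) followed, and their libraries overlapped. TRIB3 (2.42), PPP1R15A (2.34) and ATF3 (2.33) could not be ordered, since their libraries overlapped. DDIT3 (1.05), CEBPB (0.421) and CHAC1 (0.25) were the lowest. In shZNF598 ATF4 was again the highest, at 44.9 CPM per kb. Testing required a level of 1 CPM or more, averaged across the 20 libraries of 0-10 h, and 7 of the 10 members passed: ATF4 (mean 60.2 CPM), ASNS (15.6), SESN2 (10.9), PPP1R15A (3.25), DDIT4 (3.04), ATF3 (2.69) and TRIB3 (2.62). DDIT3, CEBPB and CHAC1 did not, and are described apart.

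**Figure D1:**
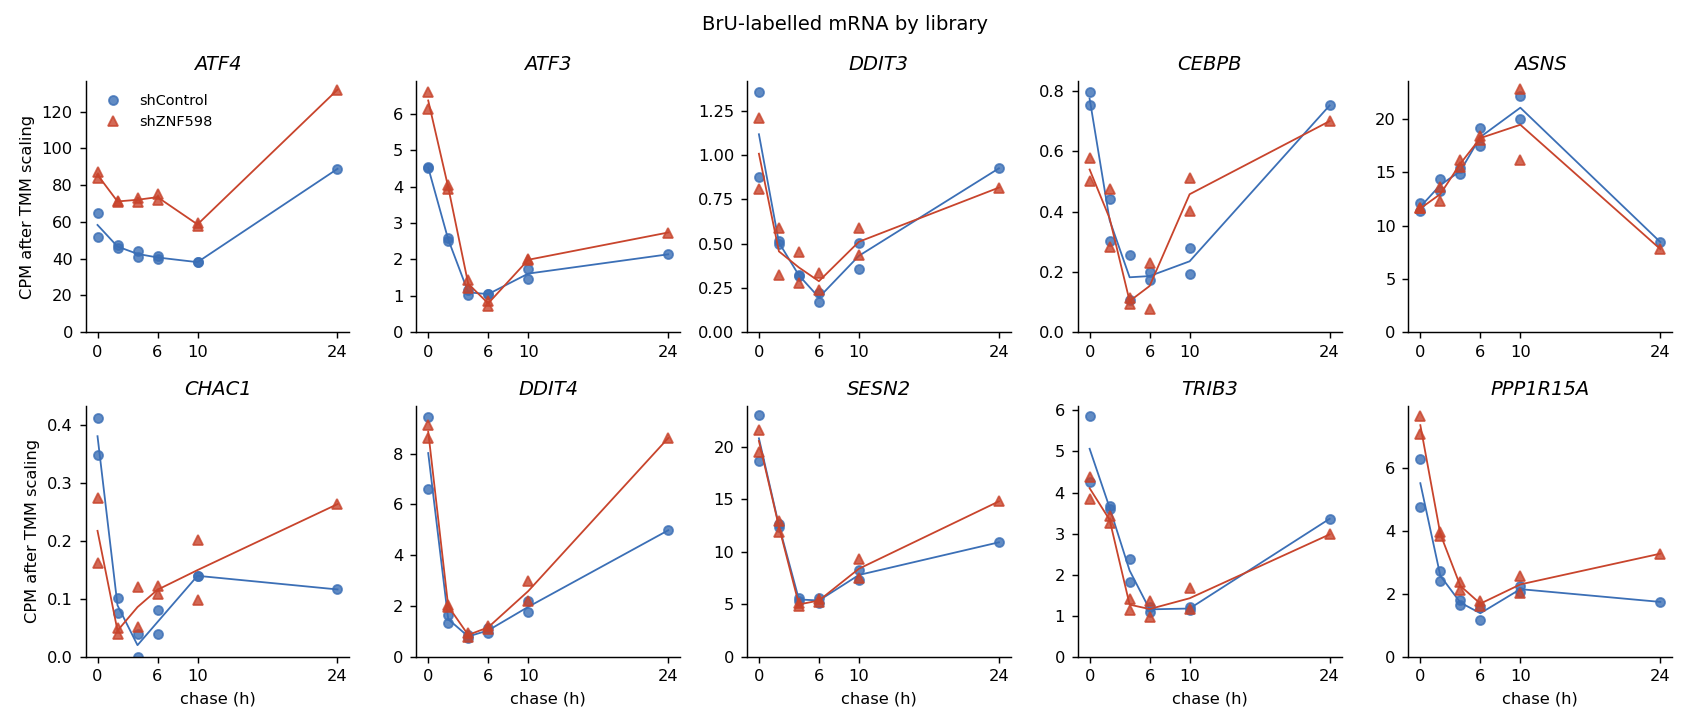
Labelled mRNA of the 10 members in CPM after TMM scaling (vertical axis, from 0) against hours of chase, with 1 point per library, circles for shControl, triangles for shZNF598 and lines through the group means. The ATF4 triangles lie above the circles at every time, most other members drop to a low at 4 to 6 h in both arms, and ASNS climbs until 10 h.

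The first question was which of these mRNAs differed between the hairpins. Averaged over 0-10 h, ATF4, PPP1R15A and ATF3 were higher in shZNF598, and no tested member was lower; 3 of 7 members were called at an adjusted p below 0.05, when 22.4% of all 79513 transcripts were called and 12.3% were called higher. At an unadjusted p below 0.05, which 27835 of the 79513 transcripts had, the fourth was DDIT4, also higher. The median log2 difference of the 7 members was 0.24, against 0.02 over all transcripts. Differences are log2 of shZNF598 over shControl from edgeR, with p-values adjusted over all transcripts.

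ATF4 showed the widest gap of the members. In shControl its libraries had 51.8 and 64.9 CPM at 0 h, 45.6 and 47.6 at 2 h, 40.9 and 44.3 at 4 h, 39.6 and 41.7 at 6 h, and 38.1 and 38.1 at 10 h. In shZNF598 they had 87.3 and 84.0 CPM at 0 h, 71.2 and 71.1 at 2 h, 70.9 and 73.2 at 4 h, 71.9 and 75.1 at 6 h, and 57.8 and 59.5 at 10 h. Both shZNF598 libraries thus lay above both shControl libraries at all 5 times, which was so for 2.05% of transcripts. At 24 h, with 1 library each, the values were 88.9 CPM in shControl and 132 CPM in shZNF598. The mean difference was 0.68 (SE 0.04), a 1.6-fold higher level with an adjusted p of 4.19e-11, and 37 of the tested transcripts had a higher one, while 508 had one of larger size in either direction. By time the log2 difference was 0.55 at 0 h (SE 0.1, adjusted p = 0.00703), 0.61 at 2 h (adjusted p = 0.00142), 0.76 at 4 h (3.8e-05), 0.86 at 6 h (6.89e-06) and 0.62 at 10 h (0.000396). ATF4 was thus among the 0.407% of transcripts called at 0 h, 0.746% at 2 h, 1.4% at 4 h, 2.29% at 6 h and 3.23% at 10 h. The mean difference stayed between 0.64 and 0.71 when any library was left out. The call at 0 h was less secure: without shControl replicate 1 the difference was 0.39 (adjusted p = 0.0865), and leaving out shZNF598 replicate 1 (0.53, adjusted p = 0.186) or replicate 2 (0.58, adjusted p = 0.105) also ended it. The call at 2 h was lost without shControl replicate 1 (0.58, adjusted p = 0.0669).

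Reads of ATF4 are not wholly its own. Its 3 transcript rows hold largely the same reads, with mean counts of 4181.4 and 4179.1 in the top pair. The processed pseudogene ATF4P3 (17:76225751-76226806, - strand) had a mean of 16.1 CPM, and its difference was 0.73 (SE 0.05, adjusted p = 8.32e-11). Reads were kept at 1 locus each, so how many of the ATF4P3 reads came from ATF4 mRNA was not tested.

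PPP1R15A, also called GADD34, brings a phosphatase to eIF2 and so ends the response (19:48872421-48876058, + strand). Its libraries had 4.75 and 6.26 CPM in shControl and 7.64 and 7.05 in shZNF598 at 0 h, 2.41 and 2.73 against 3.84 and 3.95 at 2 h, and 1.8 and 1.64 against 2.13 and 2.37 at 4 h. At 6 h the values were 1.58 and 1.18 against 1.6 and 1.77, and at 10 h 2.25 and 2.04 against 2.03 and 2.56. The shZNF598 libraries were above at 4 of the 5 times, as for ATF3, and overlapped at 10 h; 7.3% of transcripts were above at 4 or 5 times. The mean difference was 0.35 (SE 0.08), 1.27-fold, with an adjusted p of 0.00172, and no single time was called. The largest difference, at 2 h, was 0.6 (SE 0.16, adjusted p = 0.0778). At 24 h the levels were 1.74 CPM in shControl and 3.27 CPM in shZNF598.

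ATF3, a stress-induced repressor and activator of the same bZIP family as ATF4, was higher on the mean of 0-10 h and, singly, at 2 h. Its libraries had 4.53 and 4.52 CPM in shControl and 6.61 and 6.13 in shZNF598 at 0 h, and 2.58 and 2.52 against 4.04 and 3.93 at 2 h. At 4 h they had 1.02 and 1.17 against 1.44 and 1.22, at 6 h 1.05 and 1.04 against 0.869 and 0.712, and at 10 h 1.75 and 1.47 against 1.98 and 2.0. The shZNF598 libraries lay above at 4 times and below at 6 h. The mean difference was 0.26 (SE 0.07), 1.2-fold, with an adjusted p of 0.0093. At 0 h it was 0.49 (SE 0.13, adjusted p = 0.0982) and at 10 h 0.3 (SE 0.17, adjusted p = 0.364). At 2 h it was 0.64 (SE 0.14, adjusted p = 0.017), a call that was lost without any of the 4 libraries of 2 h: the difference was 0.66 without shControl replicate 1 (adjusted p = 0.184), 0.62 without shControl replicate 2 (0.281), 0.62 without shZNF598 replicate 1 (0.0891) and 0.66 without shZNF598 replicate 2 (0.137). At 6 h it was -0.42 (SE 0.19, adjusted p = 0.287). A row with no name in the annotation used here, ENST00000613954.4, had nearly the same profile as ATF3 (r of 0.999), and the 2 may hold the same reads.

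The other 4 tested members had no call. DDIT4 (REDD1), which restrains the growth kinase mTORC1 (10:72273924-72276036, + strand), had a mean difference of 0.24 (SE 0.09, adjusted p = 0.0588). The shZNF598 libraries of DDIT4 were above those of shControl at 2 of 5 times, a count not compared with all transcripts, and overlapped at 3. It was called with no filter on low counts (0.25, adjusted p = 0.0388), with the replicate block (0.24, 0.0417) and when any of 3 libraries was left out: shControl replicate 2 of 0 h (0.3, adjusted p = 0.00932), shControl replicate 2 of 10 h (0.27, 0.0491) or shZNF598 replicate 1 of 10 h (0.28, 0.0296). TRIB3, a pseudokinase that binds and dampens ATF4 (20:380760-397559, + strand), had a mean difference of -0.18 (SE 0.09, adjusted p = 0.175). At 4 h TRIB3 stood at 1.81 and 2.39 CPM in shControl and 1.13 and 1.41 in shZNF598, a difference of -0.73 (SE 0.2, adjusted p = 0.0683). Without shControl replicate 1 of 0 h the mean difference of TRIB3 was -0.22 (adjusted p = 0.0495). For ASNS, asparagine synthetase (7:97852118-97872542, - strand), the mean difference was -0.03, with bounds of -0.145 and 0.079 at 2 SE. For SESN2, a leucine sensor upstream of mTORC1 (1:28259518-28282491, + strand), it was -0.01, with bounds of -0.125 and 0.102. Both upper bounds were below the lower bound for ATF4, 0.59.

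**Figure D2:**
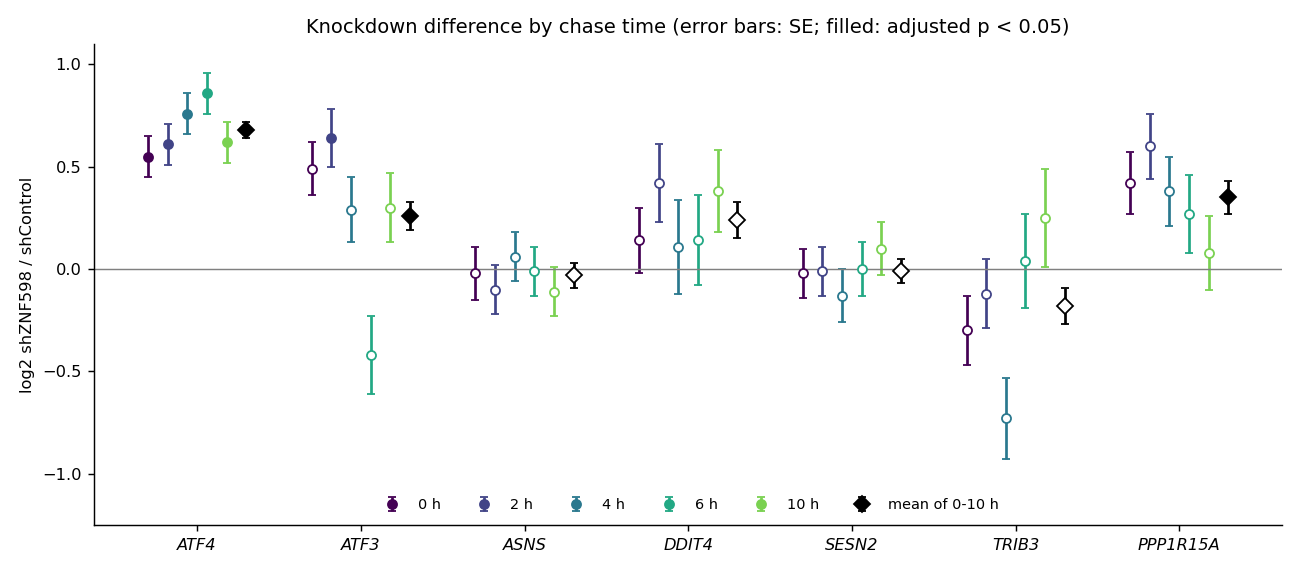
Log2 of shZNF598 over shControl (vertical axis) for the 7 tested members at 0, 2, 4, 6 and 10 h of chase (circles) and averaged over 0-10 h (diamonds), with bars of 1 SE and filled symbols for an adjusted p below 0.05. All 6 ATF4 symbols are filled, between 0.55 and 0.86, and those of ASNS and SESN2 lie around 0.

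**Figure D3:**
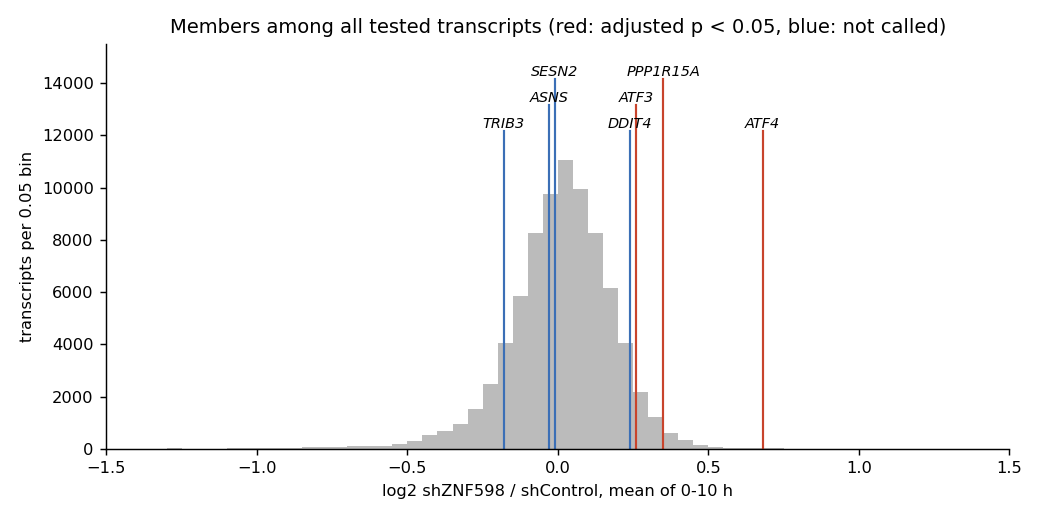
Number of transcripts in bins of 0.05 (vertical axis) by mean log2 difference between the hairpins (horizontal axis) for all 79513 transcripts, with vertical lines at the 7 members, red where called and blue where not. ATF4 at 0.68 stands at the far right edge of the histogram, while TRIB3 at -0.18 lies left of its centre. Transcripts beyond 1.5 in either direction are outside the plot.

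The chase showed how the labelled pool of each member changed with time. Since TMM scaling sets the bulk of transcripts to 1 level in every library, all slopes are relative to that bulk, and a negative slope means that a transcript was lost faster than most. In bulk RNA, fewer cells with a transcript and less of it per cell cannot be told apart. Against 0 h, 49 of 56 member, time and hairpin combinations were called. At 2 h 4 of 7 members had fallen in each arm, when 3.61% of transcripts were called lower in shControl and 3.83% in shZNF598. At 4 h 6 of 7 had fallen in each arm, when 22.8% and 23.4% of transcripts had, and ASNS had risen, as had 18.7% and 16.5%. At 6 h 6 members were lower in shControl and 5 in shZNF598 (35.7% and 34.3% of transcripts), and at 10 h 6 in each arm (44.2% and 42%). These shares count every transcript, and a gene can have several, while each member has 1. With 1 row per gene, 1292 of 15035 were called at 2 h in shControl, 169 of them higher and the rest lower. In shZNF598 1332 were called at 2 h, 181 of them higher. At 4 h 7814 were called in shControl, 3685 of them higher, and 7370 in shZNF598, 3160 of them higher.

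DDIT4 fell fastest of the 7 tested members. In shControl it went from 6.59 and 9.45 CPM at 0 h to 1.33 and 1.63 at 2 h and 0.733 and 0.867 at 4 h. In shZNF598 it went from 9.13 and 8.6 CPM to 2.02 and 1.96 and then 0.934 and 0.785. These were falls of 5.4-fold by 2 h and 10-fold by 4 h in shControl (log2 -3.32, SE 0.2, adjusted p = 3.09e-12), and of 4.46-fold and 10.2-fold in shZNF598 (log2 -3.35, SE 0.19, adjusted p = 2.05e-12). DDIT4 then turned back up, to 1.14 and 0.938 CPM at 6 h and 1.75 and 2.18 at 10 h in shControl, and to 1.1 and 1.22 and then 2.19 and 2.98 in shZNF598. At 24 h it stood at 4.98 and 8.61 CPM, 1 library each.

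SESN2 and ATF3 traced the same course less steeply. SESN2 went from 18.6 and 23.0 CPM at 0 h to 5.34 and 5.58 at 4 h in shControl, a 3.81-fold fall (adjusted p = 1.84e-11), and from 19.5 and 21.6 to 4.82 and 5.15 in shZNF598, a 4.12-fold fall (adjusted p = 8.16e-12). ATF3 fell 4.32-fold by 6 h in shControl (log2 -2.11, SE 0.16) and 8.13-fold in shZNF598 (log2 -3.02, SE 0.16). PPP1R15A fell 3.92-fold by 6 h in shControl and 4.33-fold in shZNF598. TRIB3 was slower at the start: neither arm was called at 2 h, and by 6 h it had fallen 4.42-fold in shControl and 3.49-fold in shZNF598.

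From 6 to 10 h, a comparison added after the data were seen, the labelled level of 4 members rose in shControl and of 3 in shZNF598, when 26.2% and 23.3% of transcripts did. The log2 rise of DDIT4 was 0.89 in shControl (SE 0.22, adjusted p = 0.00174) and 1.14 in shZNF598 (SE 0.21, adjusted p = 9.76e-05). SESN2 rose by 0.55 and 0.64 (adjusted p = 0.00159 and 0.000371), and ATF3 by 0.62 and 1.34 (adjusted p = 0.00524 and 2.01e-06). PPP1R15A rose by 0.62 in shControl (adjusted p = 0.00922), and its change in shZNF598 was 0.42 (adjusted p = 0.0605). The ATF3 rise in shControl was lost without replicate 1 of 10 h (0.49, adjusted p = 0.0812), and the PPP1R15A rise without that library (0.54, adjusted p = 0.0781) or without replicate 2 of 6 h (0.44, adjusted p = 0.113). The TMM factors, near 1.1 at 0 and 2 h, were 0.723 to 0.755 in the 4 libraries of 10 h, and the part of this shift in the late rises was not tested. With RLE size factors in place of TMM, the median change of all transcripts from 0 to 10 h was -0.0623 in shControl, against -0.185 with TMM, and the late rises of DDIT4 were 0.99 and 1.2. The change of PPP1R15A in shZNF598 was then called (0.49, adjusted p = 0.0311), which made 4 members that rose in each arm.

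Relative to the bulk, ATF4 also fell, but by less than the other falling tested members, and ASNS rose. Absolute stability was not tested, since all these values are relative. ATF4 fell 1.37-fold by 4 h in shControl (adjusted p = 0.000763) and 1.19-fold in shZNF598 (adjusted p = 0.0468), and 1.53-fold and 1.46-fold by 10 h. From 6 to 10 h ATF4 fell in shZNF598, as did 19.5% of transcripts: its log2 change was -0.33 (SE 0.1, adjusted p = 0.0106). Without replicate 1 of 10 h the change was -0.3 (adjusted p = 0.0575), and without replicate 2 of 6 h -0.29 (adjusted p = 0.0508). ASNS, the enzyme that makes asparagine, went from 12.1 and 11.4 CPM at 0 h to 20 and 22.1 at 10 h in shControl, and from 11.6 and 11.6 to 22.8 and 16.1 in shZNF598. It thus rose 1.79-fold and 1.68-fold relative to the bulk (adjusted p = 1.67e-06 and 1.04e-05), when 33.8% and 32.7% of transcripts had risen. At 24 h ASNS was at 8.45 and 7.79 CPM, below its 0 h levels. The lncRNA ENSG00000284707 overlaps ASNS on the same strand, and its row followed ASNS with an r of 1, so the 2 may hold the same reads.

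**Figure D4:**
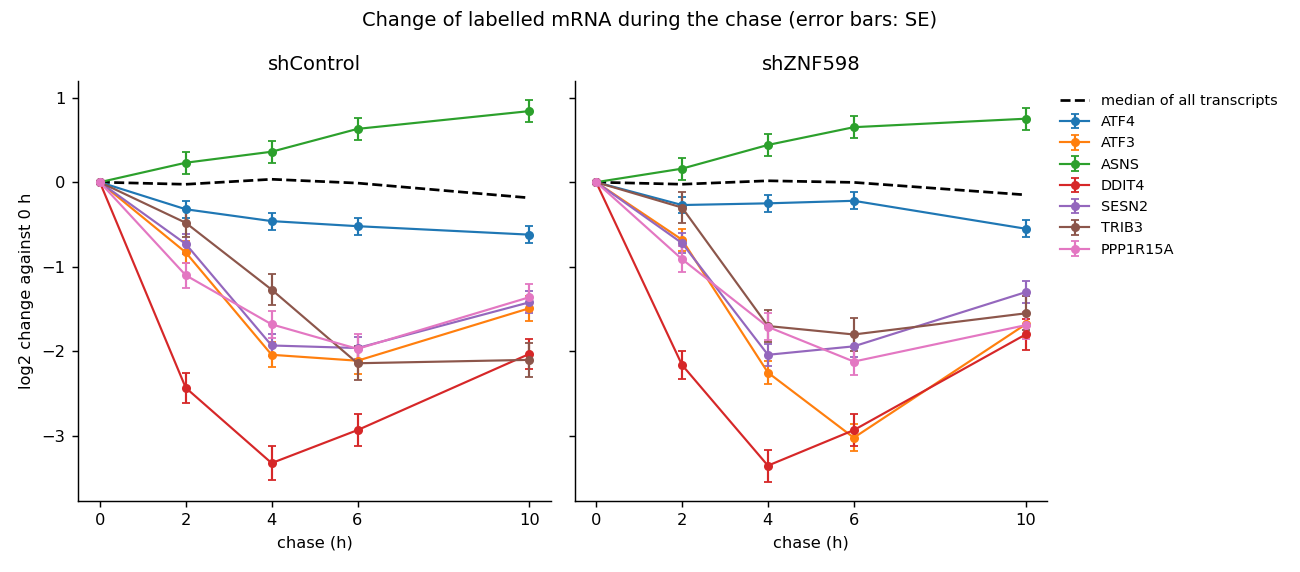
Log2 change of labelled mRNA against 0 h (vertical axis) by hours of chase for the 7 tested members in shControl (left) and shZNF598 (right), with bars of 1 SE and a dashed line for the median of all 79513 transcripts. DDIT4 reaches -3.32 and -3.35 at 4 h and turns up, ASNS climbs to 0.84 and 0.75, and ATF4 stays within 0.62 of its start.

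As a straight line over 0-10 h, the slope in log2 per hour was called in 7 of 7 members in shControl, 6 negative and 1 positive, when 74.4% of transcripts were called, 40.8% with a negative and 33.5% with a positive slope. In shZNF598 6 of 7 were called, 5 of them negative, when 71.2% of transcripts were, 38.5% with a negative slope. The steepest in shControl were TRIB3 at -0.233 (SE 0.04) and DDIT4 at -0.193 (SE 0.082), followed by ATF3 at -0.159, SESN2 at -0.145 and PPP1R15A at -0.134. ATF4 was at -0.057 (SE 0.011) and ASNS at 0.085 (SE 0.013). In shZNF598 the order was ATF3 at -0.195, TRIB3 at -0.179, PPP1R15A at -0.174, DDIT4 at -0.17 (adjusted p = 0.0634), SESN2 at -0.133, ATF4 at -0.045 and ASNS at 0.079. In both arms the 5 steepest members overlapped within 2 SE, so their order is not resolved. The line describes DDIT4 poorly: over 2-10 h, without the 0 h libraries, it gave 0.07 for shControl and 0.068 for shZNF598. Without replicate 2 of shControl at 0 h, 3 of 7 members were called in shControl, and the DDIT4 slope was -0.113 (adjusted p = 0.235).

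No member had a slope that differed between the hairpins by edgeR or by DESeq2, when 0.116% of all transcripts were called. None had an unadjusted p below 0.05 either, when 4396 of 79513 transcripts did by edgeR. The slope difference of ATF4 was 0.011 log2 per hour (SE 0.016), with bounds of -0.021 and 0.044 at 2 SE. ASNS was bounded as closely, between -0.043 and 0.031. For DDIT4 the bounds were -0.203 and 0.249, for ATF3 -0.198 and 0.125, for SESN2 -0.119 and 0.143, for PPP1R15A -0.162 and 0.081, and for TRIB3 -0.056 and 0.164. Differences inside those bounds remain possible, and the bounds do not say which size would have been called. The SE of a slope holds the bend of a profile away from the line as well as the spread between libraries. For the DDIT4 slope difference the SE was 0.113 over 0-10 h and 0.078 over 2-10 h. On simulated counts for the 79513 transcripts, a slope difference of 0.15 was recovered in 54% of 200 changed transcripts. These were drawn at random from all transcripts, and recovery for the members themselves was not counted. Time by time, the hairpin difference of no member changed from that at 0 h by edgeR, the only tool run for it. At 6 h, when 0.0465% of transcripts were called, ATF4 (0.3, unadjusted p = 0.0426) and ATF3 (-0.91, unadjusted p = 0.000468) were below 0.05 before adjustment. So were 3861 of the 79513 transcripts.

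**Figure D5:**
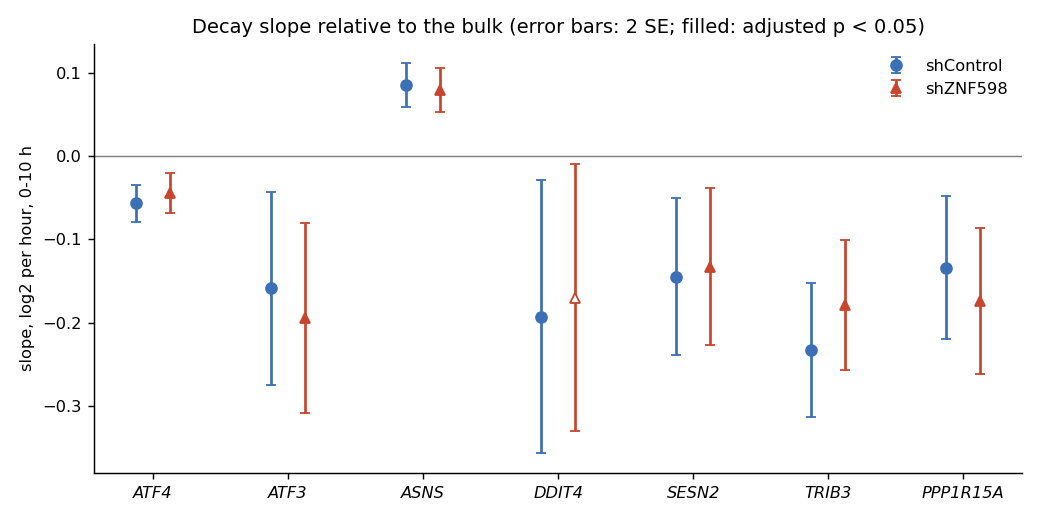
Slope of labelled mRNA over 0-10 h in log2 per hour (vertical axis) for the 7 tested members, circles for shControl and triangles for shZNF598, with bars of 2 SE and filled symbols for an adjusted p below 0.05. The bars of both arms overlap in every member, and ASNS at 0.085 and 0.079 is the one member above 0.

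Apparent half-lives were fitted by the rule of the study without its spike-in factor, so they too are relative to the bulk and carry no test. A reliable value in both arms was had for 4 members. DDIT4 had the shortest, 1.21 h in shControl and 1.21 h in shZNF598. ATF3 had 1.98 h in shControl, fitted over 0-4 h, and 1.9 h in shZNF598, fitted over 0-6 h. SESN2 had 2.1 and 2.01 h, and PPP1R15A 2.43 and 2.42 h. The rule keeps the window with the highest R², so the arms of ATF3 rest on different windows. The fits of DDIT4, SESN2 and PPP1R15A were lines through 0, 2 and 4 h alone in both arms. For TRIB3 the values were 2.83 and 3 h, the second with an R² of 0.891, under the required minimum. ATF4 gave 9.39 h in shControl, and in shZNF598 no reliable value (29.1 h, R² of 0.715). The ATF4 value rested on 1 replicate: it was not reliable without replicate 1 (7.73 h, R² of 0.845) and was 13 h without replicate 2. Without replicate 1, TRIB3 became the fifth member with a reliable value in both arms (3.17 and 2.57 h). Among the 5 members with fits under 4 h, ATF3 and PPP1R15A had a TATTTAT in the windows above, and DDIT4, SESN2 and TRIB3 had no ATTTA.

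DDIT3, CEBPB and CHAC1 were below the filter and rest on few reads. DDIT3, or CHOP, the pro-apoptotic factor of the response (12:57516589-57520517, - strand), had 11 to 102 counts per library over 0-10 h. Its level was 0.877 and 1.36 CPM in shControl and 1.21 and 0.807 in shZNF598 at 0 h, which overlap, and 0.173 and 0.219 against 0.335 and 0.241 at 6 h. CEBPB, a C/EBP factor that partners ATF4 (20:50190830-50192668, + strand), had 0.752 and 0.797 CPM in shControl and 0.579 and 0.5 in shZNF598 at 0 h, and 0.192 and 0.278 against 0.402 and 0.513 at 10 h. CHAC1, which breaks down glutathione (15:40953471-40956512, + strand), had 0 to 31 counts per library; 0.348 and 0.412 CPM in shControl at 0 h stood against 0.273 and 0.161 in shZNF598, 0 and 0.04 against 0.0513 and 0.12 at 4 h, and 0.0799 and 0.0399 against 0.122 and 0.109 at 6 h. For both CEBPB and CHAC1 the shControl libraries were thus above at 0 h and below at a later time, on few reads. The share of all transcripts with such a change of order was not counted. The change of the hairpin difference from 0 h was not called for CEBPB (1.44 at 10 h, adjusted p = 0.334) or for CHAC1 (2.76 at 4 h).

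In a fit with no filter, edgeR called none of these 3 for the mean of 0-10 h or for the slope difference. The mean differences were 0.14 for DDIT3 (SE 0.14), -0.1 for CEBPB (SE 0.17) and 0.25 for CHAC1 (SE 0.31), with unadjusted p-values of 0.326, 0.58 and 0.406. At 10 h the CEBPB difference was 0.94 (SE 0.4, adjusted p = 0.298). In shControl all 3 had fallen at each of the 4 later times, when 2.69%, 13.4%, 21.1% and 26% of transcripts without a filter had at 2, 4, 6 and 10 h. At 2 h the log2 changes were -1.07 for DDIT3, -0.97 for CEBPB and -2.0 for CHAC1 (adjusted p = 0.00231, 0.0323 and 0.00357). In shZNF598 the shares of all transcripts were 2.78%, 13.7%, 20.2% and 24.3%, and DDIT3 had fallen at each of the 4 times, with log2 changes of -1.09 at 2 h and -1.73 at 6 h. CEBPB fell by 2.26 at 4 h and was lower at 6 h (-1.62, adjusted p = 5.98e-05), but its changes at 2 h (-0.45, adjusted p = 0.657) and 10 h (-0.23, adjusted p = 0.665) were not called. CHAC1 fell by 2.17 at 2 h in shZNF598, and its changes at 4 h (-1.29), 6 h (-0.81) and 10 h (-0.43) were not called (adjusted p = 0.0752, 0.257 and 0.619). DDIT3 overlaps MARS1 and CEBPB overlaps CEBPB-AS1 on the opposite strand. The strand setting of the read counting is not given in the sources used here, so reads of these partners cannot be told apart. On its own strand DDIT3 overlaps the protein-coding gene ENSG00000285133 and the microRNA gene MIR616. How many reads DDIT3 shares with them was not tested.

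For each member the gene with the most similar profile over the 20 libraries is given as a description, by Pearson r of log2 CPM. Beside the rows that share sequence or position with ATF4, ATF3 and ASNS, these were TXNIP for DDIT4 (0.986), RNF4 for SESN2 (0.989), NOA1 for TRIB3 (0.98), COX19 for PPP1R15A (0.975), ZNF548 for DDIT3 (0.922), GATA4 for CEBPB (0.904) and VAMP1 for CHAC1 (0.855). The 20 points share the course of the chase.

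Around these 10 genes, other genes of the pathway were counted. Of 18 genes of the eIF2 machinery (kinases and their regulators, eIF2 and eIF2B subunits, the phosphatase), 4 were higher in shZNF598 on the mean of 0-10 h and 0 lower, with 5 higher and 2 lower at an unadjusted p below 0.05. They included IMPACT, an inhibitor of GCN2 activation (0.34, SE 0.06, adjusted p = 8.58e-05), EIF2AK3, the kinase PERK (0.21, SE 0.07, adjusted p = 0.0303), and PPP1R15B, the constitutive partner of the eIF2 phosphatase (0.19, SE 0.06, adjusted p = 0.0146). Among all transcripts 22.4% were called and 12.3% were called higher, and 27835 of 79513 had an unadjusted p below 0.05. The median of this list, 0.02, equalled that of all transcripts. None of the 8 subunits of eIF2 or eIF2B was called.

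Of 29 further ATF4 targets, 22 were tested, and 4 were higher and 5 lower, when 22.4% of all transcripts were called and 12.3% were higher. At an unadjusted p below 0.05 there were 6 higher and 6 lower, beside 27835 of 79513 transcripts in either direction. Those higher included VEGFA, the angiogenic growth factor (0.26, SE 0.08, adjusted p = 0.0195), the mitochondrial folate enzyme ALDH1L2 (0.25, SE 0.09, adjusted p = 0.0469) and the cationic amino acid transporter SLC7A1 (0.18, SE 0.06, adjusted p = 0.038). Those lower included the secreted glycoprotein STC2 (-0.3, SE 0.07, adjusted p = 0.00217), the proline enzyme PYCR1 (-0.23, SE 0.07, adjusted p = 0.0134) and the leucine transporter SLC7A5 (-0.23, SE 0.05, adjusted p = 0.00119). Calls in this list thus went in both directions, and its median was 0.062, against 0.02 over all transcripts. In shControl the slopes of 6 of 6 tested amino acid transporters were called negative, and of 11 amino acid and one-carbon enzymes 6 were called positive and 3 negative, when 40.8% of all transcripts were negative and 33.5% positive. In shZNF598 5 of the 6 transporters were negative, and 6 of the 11 enzymes were positive and 4 negative. The difference between the transporters and the enzymes was not tested.

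The ATF6 and IRE1 branches of the unfolded protein response were set beside them, since they answer to stress of the endoplasmic reticulum and not to eIF2. Of 19 tested genes, 4 were higher and 3 lower, beside the same 22.4% called and 12.3% higher of all transcripts. At an unadjusted p below 0.05 there were 4 of each, beside the same 27835 of 79513 transcripts. The higher ones included XBP1, the transcription factor that IRE1 splices (0.22, SE 0.06, adjusted p = 0.00803), and SEL1L and EDEM1 of ER-associated degradation (0.2 and 0.22, adjusted p = 0.00667 and 0.0481). The 3 lower ones were the chaperones SDF2L1 (-0.32, adjusted p = 0.0116), CALR (-0.23, adjusted p = 0.000496) and PDIA6 (-0.18, adjusted p = 0.00197). At 0 h alone and for the slope difference edgeR called 0 genes in all 3 lists. At an unadjusted p below 0.05 there were 1, 2 and 1 at 0 h, and 1, 1 and 1 for the slope difference, in the eIF2, ATF4 and ATF6 and IRE1 lists. Of all 79513 transcripts, 8067 at 0 h and 4396 for the slope difference were below it.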

How the data were processed

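The deposited values were raw read counts per transcript, 1 file per library. Per the labels and the study's methods, the authors removed ribosomal RNA, built TruSeq Stranded libraries, trimmed reads with fastp, removed noncoding RNA reads and aligned the rest with STAR 2.7.0a to hg38 at 1 locus per read before featureCounts; CASAVA 1.8 is also in their processing notes. The authors also added spike-in RNAs, which were not used here: half-lives are relative. Identifiers were named with GENCODE release 44 (GRCh38): of 227264, 92.2% matched with their version, 98.4% without it, and 2.24% of counts fell in unmatched rows. TRIB3 matched without its version. Rows that matched no gene kept their own identifier in place of a gene name.

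Groups came from the labels. Counts were analysed with edgeR 4.0.16 (R 4.3.3): a filter at 1 CPM on average across the 20 libraries of 0-10 h, TMM scaling, a model with 1 mean per group and a model with hairpin, hours and their product, quasi-likelihood tests with Benjamini-Hochberg adjustment over 79513 transcripts, and SE as the log2 change over the square root of F. Half-lives used DESeq2 1.42.0 over all 22 libraries. All 10 members are named; from 3 further lists, only called genes, at most 3 per list, direction and comparison. Members and lists were chosen with earlier results of these data known. On simulated counts for 79513 transcripts, 100% of 200 level changes of 0.7 log2 units were recovered, with 5 false calls among 205. In each group the 2 libraries differed by more than counting noise, with a chi-square of 2.31 to 18.8 per degree of freedom. Alternatives covered scaling, test, filter, 1 row per gene, replicate block, left-out libraries and chase windows. Comparisons of 10 h with 6 h, and of the hairpin difference across times, were chosen after seeing the data. A marker of another cell type is not reported here.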

Additional observations from a re-analysis of the deposited data

Results flagged for a closer look

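The chase of ATF3 differed most between the hairpins at 6 h. Its log2 change from 0 to 6 h was -2.11 in shControl and -3.02 in shZNF598, a difference of -0.91 (SE 0.23). It was singled out because a test of the difference itself, chosen after seeing the data, gave an unadjusted p of 0.000468 in edgeR. After adjustment over all 79513 transcripts the p was 0.307, so it did not pass, and 37 transcripts did at 6 h. At 6 h both shControl libraries, at 1.05 and 1.04 CPM, lay above both shZNF598 libraries, at 0.869 and 0.712 CPM, the reverse of the order at the other 4 times. Over 24 alternative fits the difference stayed between -1.05 and -0.76, with adjusted p-values from 0.164 to 1; it was nearest 0 without replicate 2 of shZNF598 at 6 h. At 10 h against 0 h the difference was -0.19 (SE 0.21, adjusted p = 0.843).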

How the results depend on the processing

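Of 966 values for single members under alternatives, 885 kept their direction and side of the threshold, 35 lost a call, 10 gained one and 36 changed sign; a sign change of a called value occurred in slopes alone. Leaving out 1 library at a time, the members called were 3 to 4 for the mean of 0-10 h, 0 to 2 at 0 h, 0 to 3 at 2 h, 1 to 2 at 4 h, 1 at 6 h and 10 h, 0 for the slope difference, 3 to 7 for the slope in shControl and 5 to 7 in shZNF598, and 47 to 52 for the steps against 0 h. With the libraries of 0 h alone, 0 members were called at 0 h (ATF4 0.52, adjusted p = 0.668). At 4 h 2 were called with no filter and with the replicate block, TRIB3 being the added one (-0.72 and -0.73). Over 0-24 h, 0 slopes were called in either arm, and over 2-10 h 3 in shControl. With a fixed window of 0-10 h, 0 half-lives were reliable in both arms. The cause of these changes was not tested.

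The slope turned sign over 0-24 h for ASNS (-0.008 and -0.014 in shControl and shZNF598) and ATF4 (0.023 and 0.022), and for DDIT4 in shZNF598 (0.017); over 2-10 h it did so for DDIT4 (0.07 and 0.068). The slope difference, called nowhere, turned sign over 0-4 h for SESN2 (-0.018), ASNS (0.03), PPP1R15A (0.006) and TRIB3 (-0.087), over 0-6 h for ASNS (0.01), over 2-10 h for DDIT4 (-0.002) and ATF4 (-0.004), and over 0-24 h for PPP1R15A (0.019) and ATF4 (-0.001). Leaving out 1 library, uncalled values that crossed 0 ran from -0.05 to 0.02 for SESN2 and -0.09 to 0.01 for ASNS on the mean, at 0 h from -0.17 to 0.14 for SESN2, -0.06 to 0.02 for ASNS and -0.1 to 0.43 for DDIT4, and for the slope difference from -0.038 to 0.055 for SESN2, -0.099 to 0.019 for ATF3, -0.017 to 0.018 for ASNS, -0.057 to 0.095 for DDIT4, -0.088 to 0.005 for PPP1R15A and -0.005 to 0.017 for ATF4. The slope of DDIT4 in shControl lost its call with RLE size factors (-0.181, adjusted p = 0.054), 1 row per gene (-0.179) and DESeq2 (-0.164).

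Replicate numbers paired the libraries at most in part. Deviations of same-numbered libraries correlated between -0.3 and 0.43 (median 0.02), above 0.1 in 12 of 45 pairs of groups. With the replicate block, 4 members were called on the mean of 0-10 h, DDIT4 being added (0.24, adjusted p = 0.0417).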
